A study of Mus musculus with 16 samples.

Results

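The 35 genes described here encode proteins that copy DNA or divide the cell, and they were taken by symbol from the deposited count table, which lists 18346 genes. All 35 were found, and 30 had enough reads to be tested. Bulk RNA was sequenced from whole dissected mouse hearts of 4 groups with 4 independent animals in each. The groups were wild-type (WT) c57bl/6j mice at 8 weeks (young) and at 25 months (aged), and systemic Armh4 knockout (KO) mice at 8 weeks and at 25 months. All were kept on normal food in the same housing. The knocked-out allele, the sex of the animals and the breeding of the KO line are not given in the sources used here. Hearts are named by group and animal number, and the 4 values of a group are always listed in the order WT_Young-29, WT_Young-34, WT_Young-39, WT_Young-42; WT_Aged-1, WT_Aged-4, WT_Aged-5, WT_Aged-12; KO_Young-27, KO_Young-31, KO_Young-38, KO_Young-53; and KO_Aged-114, KO_Aged-115, KO_Aged-122, KO_Aged-125.

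A cell that enters the cycle first loads a ring of the helicase subunits Mcm2 to Mcm7 on its DNA, then makes cyclin E and nucleotides and copies the genome with the sliding clamp Pcna. Later, cyclins A and B with the kinase Cdk1, the Aurora and polo kinases and the motors of the spindle carry it through mitosis, and the anaphase-promoting complex (APC/C) ends it. Most cardiomyocytes of an adult heart have left the cycle, and resident and recruited non-muscle cells make up much of its dividing population. The replication genes are typically driven by E2F factors. The mitotic genes are typically driven through a CHR element (cell cycle genes homology region) paired with CCAAT boxes, the sites of the factor NF-Y. Below, Mcm2 to Mcm7, Pcna, Ccne1, Ccne2, Tyms and Rrm2 are the 11 replication and G1/S genes, and the other 24 are called mitotic. The mitotic list thus includes Mki67, a mark of cycling cells, and Ccna2, a cyclin of S phase as well as early mitosis.

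The promoters of Mcm7, Mki67 and Mcm6 are printed because these genes had the smallest adjusted p-values among members whose promoter holds a CHR element or an E2F-type motif. Each run is 300 bases, from 250 before to 50 after a transcription start, 5′ to 3′ on the gene's own strand, from RefSeq on mouse build GRCm38.p6. The submitters' processing notes name GRCm39 for the counts, so the coordinates belong to the promoter table and not to the counts. Capitals mark CHR elements (TTTGAA or TTCGAA) and E2F-type motifs (TTCCCGC or TTGGCGC or TTCGCGC or TTGCCGC) read on both strands, and matches that overlap run together. Mcm7 has 2 windows in the table, and the one with a CHR element is shown.
Mcm7, chr5:138171834-138172133, minus strand: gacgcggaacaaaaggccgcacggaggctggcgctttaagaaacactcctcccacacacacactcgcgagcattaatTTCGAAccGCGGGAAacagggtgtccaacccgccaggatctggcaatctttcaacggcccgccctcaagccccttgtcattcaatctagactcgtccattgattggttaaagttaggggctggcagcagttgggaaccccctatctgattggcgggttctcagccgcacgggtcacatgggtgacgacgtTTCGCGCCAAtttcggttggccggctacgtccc
Mki67, chr7:135716330-135716629, minus strand: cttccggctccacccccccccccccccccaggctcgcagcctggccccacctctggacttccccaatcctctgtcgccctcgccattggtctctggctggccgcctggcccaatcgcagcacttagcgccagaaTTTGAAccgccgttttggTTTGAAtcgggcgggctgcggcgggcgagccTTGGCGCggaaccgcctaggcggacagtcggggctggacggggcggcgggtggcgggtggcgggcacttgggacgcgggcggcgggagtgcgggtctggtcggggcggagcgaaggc
Mcm6, chr1:128359656-128359955, minus strand: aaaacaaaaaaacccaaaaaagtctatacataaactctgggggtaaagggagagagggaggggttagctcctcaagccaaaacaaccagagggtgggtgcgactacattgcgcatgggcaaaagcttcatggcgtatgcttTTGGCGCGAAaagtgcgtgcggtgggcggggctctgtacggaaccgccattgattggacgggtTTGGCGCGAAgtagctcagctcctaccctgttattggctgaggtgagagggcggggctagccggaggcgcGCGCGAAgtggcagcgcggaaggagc
Mki67 held CHR elements at 116 and 98 bases before the start and an E2F-type motif at 67 bases before it. The Mcm7 window held a CHR element at 173 bases before the start and 3 E2F-type matches, of which TTCGCGC and TTGGCGC overlap on opposite strands. Mcm6 held no CHR element and 5 E2F-type matches, 4 of them in overlapping pairs.

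Promoter windows were found for 29 of the 35 genes, the 6 without one being Aurkb, Ccna2, Ccne2, Kif20a, Mcm4 and Tpx2. Mcm7 and Prc1 had 2 windows each, and such a gene counted if either window held a match. A CHR element was found in 18 of these 29 genes, or 62.1%, and in 19.2% of all 32851 windows of the same length. A CCAAT box was found in 25 genes, or 86.2%, against 37.4% of all windows. All 18 genes with a CHR element also held a CCAAT box, a pair found in 7.52% of all windows. Of the 20 mitotic genes with a window, 16 (80%) held a CHR element and 4 held an E2F-type motif, while of the 9 genes of replication and the G1/S step 2 (22.2%) held a CHR element and 5 (55.6%) an E2F-type motif. E2F-type motifs were found in 9.57% of all windows and in 15.8% of the windows of genes tested here. A match is a string of letters and not a measured binding site.

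**Figure D1:**
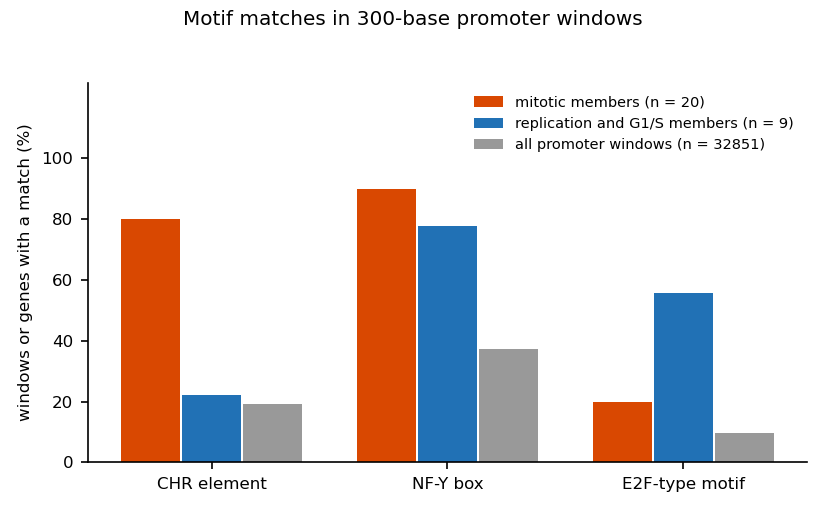
Matches of a CHR element, an NF-Y (CCAAT) box or an E2F-type motif in promoter windows, in percent. For the 20 mitotic genes and the 9 genes of replication and the G1/S step, bars give the share of genes with a match in any window. The remaining bars give the share of all 32851 windows. CHR elements were in 80% of the mitotic genes and 22.2% of the replication and G1/S genes, and E2F-type motifs in 20% and 55.6%.

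Libraries held 11456503 to 13298660 counts, and no pair of hearts agreed within sampling noise. Levels are given as CPM (counts scaled to TMM-adjusted library size), with mean ± SD over 4 hearts, and changes as log2 fold changes ± SE. Each adjusted p comes from the quasi-likelihood F test of edgeR, with the Benjamini-Hochberg method over 13373 genes. The words rose and fell are kept for an adjusted p under 0.05. Armh4, the deleted gene, was at 15.5 ± 2.49 CPM (young) and 18.5 ± 1.94 CPM (aged) in the WT groups and at 0.374 ± 0.198 and 1.14 ± 0.368 CPM in the KO groups, which matched the genotype labels. Cardiomyocyte markers summed to 83380 to 118000 CPM in every heart. Macrophage markers, 15 of 15 tested, rose with age in 13 cases in WT and in 11 in KO hearts. In a bulk sample more cells of a type and more RNA per cell cannot be told apart.

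Compared per length, with the deposited FPKM (scaled for gene length and library size), the clamp Pcna stood far above the other 34 genes at 39.5 ± 1.83 FPKM in young WT hearts. Mcm7 (3.84 ± 0.265), Mcm6 (3.56 ± 0.536), Mcm4 (3.08 ± 0.316) and Cenpf (2.96 ± 0.647) followed, and these neighbours in the order did not all differ beyond their SD. The division marker Mki67 was at 0.335 ± 0.07 FPKM and Cenpe, a kinesin of the kinetochore, at 0.095 FPKM. Most mitotic genes were read from few counts. Counts per library ran from 29 to 155 for Mki67, from 15 to 99 for Top2a and from 5 to 23 for Plk1. Ccna2, Ccne2 and Kif20a had fractional counts in all 16 libraries and Tyms in 15, so reads may be shared with similar sequences there.

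In WT hearts 7 of the 11 replication and G1/S genes and 2 of the 19 tested mitotic genes rose with age. Of the 30 tested genes 9 rose and 0 fell, where over all genes 11.9% rose and 10% fell. DESeq2 and limma also called 0 of them lower, and no gene with a negative change had an unadjusted p under 0.05. The 7 were Ccne1, Tyms and 5 helicase genes, and the mitotic ones were Mki67 and Nusap1. The median change was 0.51 for the replication and G1/S genes, 0.35 for the mitotic genes and -0.01 over all genes. Macrophage markers summed to 237.1 to 319.7 CPM in young and 609.3 to 852.5 CPM in aged WT hearts. All 4 tested neutrophil markers rose as well, and so did the 6 tested erythroid markers. Of 3 tested T and NK cell markers 2 (Cd8a and Cd3g) rose, while 5 of 8 smooth muscle and pericyte markers fell. Fabp4, the 1 tested of 5 adipose markers, rose too. Of 10 endothelial markers Tie1, Flt1 and Cdh5 fell, and of 10 cardiomyocyte markers Actc1 and Myh6. Of 9 fibroblast markers 1 rose and 2 fell, and of 3 tested erythroid precursor markers 1 rose and 1 fell. Acta1, of 2 tested genes on the skeletal muscle list, fell. The neutrophil markers Ly6g, Elane and Camp were at 0 in all young WT hearts. So were the erythroid precursor markers Gata1, Gfi1b, Kel and Rhag, the adipose marker Ucp1 and the atrial marker Bmp10. WT_Aged-1 had the highest sums of the aged WT hearts for macrophage (852.5 CPM), erythroid (2211 CPM), fibroblast (2513 CPM) and atrial markers (521.1 CPM), and for Mcm2 to Mcm7 as well (72.3 CPM). The part of these cells in the rise was not tested.

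Mcm7, a subunit of the helicase ring, was at 8.29, 8.45, 8.27 and 9.31 CPM in young WT hearts and at 11.3, 14.2, 13.3 and 11.4 CPM in aged WT hearts. All 4 aged hearts were above all 4 young ones, a rise of 0.55 ± 0.11 (adjusted p = 0.00103, edgeR). Mcm4 was at 11.5, 10.2, 10.9 and 9.31 CPM in young hearts and at 15.6, 12.9, 14.8 and 13.4 CPM in aged ones. These groups did not overlap either, and Mcm4 rose by 0.43 ± 0.10 (adjusted p = 0.00343). Mcm6 was at 11.8, 10.6, 8.70 and 10.7 CPM in young hearts and at 18, 14.1, 14.6 and 14.2 CPM in aged ones. WT_Aged-1 was the highest of the aged group, and without overlap Mcm6 rose by 0.54 ± 0.13 (adjusted p = 0.00598). Mcm3 went from 7.24, 6.52, 5.77 and 7.30 CPM to 11.6, 8.00, 10.5 and 8.56 CPM, and Mcm2 from 5.07, 7.08, 7.49 and 6.54 CPM to 10.1, 8.40, 8.48 and 10.4 CPM. Both were higher in every aged heart, with rises of 0.53 ± 0.14 (adjusted p = 0.00915) and 0.51 ± 0.15 (adjusted p = 0.017). Mcm5, the remaining subunit, was at 4.99, 3.30, 2.76 and 2.85 CPM in young and at 5.84, 2.85, 4.28 and 3.60 CPM in aged hearts. Its groups overlapped and it did not pass the test (0.25 ± 0.22, adjusted p = 0.451). The 5 subunits that rose did so by 0.43 to 0.55, so that the ring summed to 46.3 ± 2.06 CPM in young and 65.1 ± 5.37 CPM in aged WT hearts.

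The clamp Pcna was at 40.6, 40.3, 39.6 and 39.9 CPM in young WT hearts and at 57.3, 47.3, 40.7 and 41.8 CPM in aged ones. Its groups did not overlap, but WT_Aged-5 and WT_Aged-12 sat close to the young ones, and Pcna did not pass the test (0.22 ± 0.09, adjusted p = 0.0797). It passed without WT_Aged-5 (adjusted p = 0.0285), without WT_Aged-12 (adjusted p = 0.0422) and with limma on the FPKM table (adjusted p = 0.042).

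Ccne1, the cyclin E that starts replication with Cdk2, was at 0.724, 1.05, 1.21 and 0.923 CPM in young and at 2.11, 2.54, 1.99 and 1.92 CPM in aged WT hearts. The levels were low but well apart, and Ccne1 rose by 1.13 ± 0.24 (adjusted p = 0.00241). Its paralog Ccne2 was at 2.45 ± 0.519 and 2.42 ± 0.842 CPM (change -0.02 ± 0.24, adjusted p = 0.96). Tyms, which makes thymidylate for DNA, was at 4.59, 3.46, 3.44 and 3.78 CPM in young and at 6.49, 6.18, 9.78 and 3.52 CPM in aged hearts. WT_Aged-12 lay among the young hearts, WT_Aged-5 was far above the rest, and Tyms rose by 0.77 ± 0.22 (adjusted p = 0.0167), a call that ended without WT_Aged-5 (0.50, adjusted p = 0.072), without WT_Young-39 (adjusted p = 0.0509) and with only the WT groups in the fit (adjusted p = 0.0687). Rrm2, a subunit of ribonucleotide reductase, had the same mean of 2.45 CPM in both groups (change 0.005 ± 0.204, adjusted p = 0.989).

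Mki67, which encodes the Ki-67 antigen carried by cycling cells, was at 2.9, 3.86, 2.50 and 3.52 CPM in young WT hearts and at 7.62, 6.89, 7.56 and 6.00 CPM in aged ones. Every aged heart was above every young heart, and Mki67 rose by 1.13 ± 0.22 (adjusted p = 0.00109). Nusap1, a microtubule-binding protein of the spindle, was at 0.966, 1.29, 1.38 and 0.923 CPM in young and at 2.11, 1.74, 1.83 and 2.32 CPM in aged hearts. It rose by 0.81 ± 0.26 (adjusted p = 0.0338) without overlap, but the call ended with DESeq2 (adjusted p = 0.0599) and on leaving out 4 of the 8 hearts singly (adjusted p up to 0.0881). The other 17 mitotic genes did not pass. Top2a, the topoisomerase that untangles replicated chromosomes, was at 2.25, 3.62, 2.24 and 1.26 CPM in young and at 2.76, 3.17, 4.05 and 3.60 CPM in aged hearts, which overlapped (0.53 ± 0.31, adjusted p = 0.235). Cdc20, an activator of the APC/C, had the lowest change, -0.35 ± 0.27 (adjusted p = 0.386), and Cdk1, the kinase of mitotic entry, the highest of those that did not pass, 0.93 ± 0.42 (adjusted p = 0.117). Between them lay Aurka, Birc5, Bub1b, Ccna2, Ccnb2, Cenpe, Cenpf, Kif11, Kif20a, Kif23, Plk1, Prc1, Tpx2 and Ube2c. Ccna2 and Tpx2 were without overlap and did not pass (adjusted p = 0.205 and 0.109); groups that did not overlap with aged hearts higher made up 12% of all genes.

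**Figure D2:**
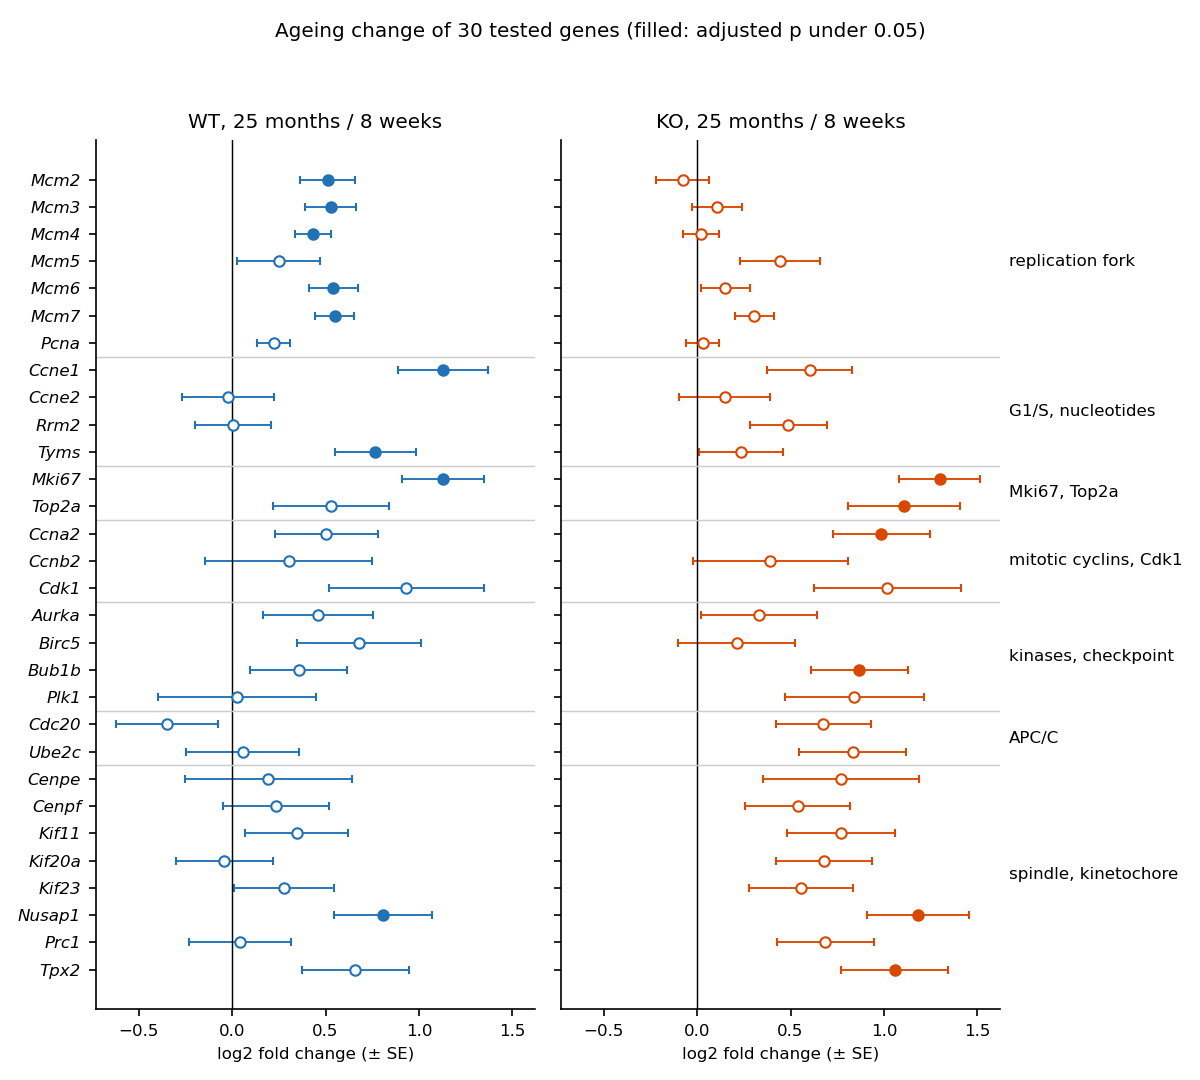
Log2 fold change ± SE from 8 weeks to 25 months for the 30 tested genes in WT hearts (left) and KO hearts (right), by role, with 4 hearts a group and filled points where the adjusted p was under 0.05. In WT the 9 filled points include 5 helicase subunits, and in KO the 6 filled points are all from the mitotic list, Mki67 among them.

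In KO hearts the genes that rose with age were all from the mitotic list, which includes Mki67, a mark of cycling cells that rose in WT hearts too. Of the 30 tested genes 6 rose and 0 fell, where over all genes 5.03% rose and 2.64% fell. Here too DESeq2 and limma called 0 lower, and Mcm2, the single negative value, had an unadjusted p of 0.596. All 6 were among the 19 tested mitotic genes, and 0 of the 11 replication and G1/S genes passed edgeR's test, 3 of them at an unadjusted p under 0.05 (21.9% of all genes). Limma on the FPKM table called Ccne1 and Mcm7 of them. The median change was 0.77 for the mitotic genes, 0.15 for the replication and G1/S genes and -0.01 over all genes. Macrophage markers summed to 266.6 to 329 CPM in young and 464.8 to 504.7 CPM in aged KO hearts. The neutrophil markers S100a9 and Csf3r (2 of 4 tested) rose as well, while 0 of the 6 erythroid markers passed edgeR's test (1 at an unadjusted p under 0.05). Fabp4, the 1 tested of 5 adipose markers, rose as it did in WT hearts, and so did Epor, with 3 of 8 erythroid precursor markers tested. Gata1, Gfi1b and Rhag of the precursor list were at 0 in all young KO hearts. Ucp1 of the adipose list and Ly6g, Mmp8, Mpo, Elane and Camp of the neutrophil list were at 0 there too. Of 10 endothelial markers Tek and Tie1 fell, of 10 cardiomyocyte markers Myl2, and Acta1 fell as in WT hearts. The part of these cells in the rise was not tested.

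Mki67 was at 3.28, 3.70, 2.89 and 3.00 CPM in young KO hearts and at 11.9, 8.53, 5.33 and 5.98 CPM in aged ones. The aged hearts were all above the young ones but spread widely, with KO_Aged-114 and KO_Aged-115 on top, and Mki67 rose by 1.30 ± 0.22 (adjusted p = 0.0011). Nusap1 was at 0.672, 1.15, 0.660 and 1.08 CPM in young and at 2.37, 2.73, 1.52 and 1.54 CPM in aged hearts. It rose by 1.18 ± 0.27 (adjusted p = 0.0113), again without overlap. Tpx2, which nucleates spindle microtubules and activates Aurora A, was at 1.01, 1.32, 0.990 and 0.834 CPM in young and at 3.06, 2.73, 1.52 and 1.37 CPM in aged hearts. The groups did not overlap, with KO_Aged-122 and KO_Aged-125 just above the young ones, and Tpx2 rose by 1.06 ± 0.29 (adjusted p = 0.0281).

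Ccna2, the cyclin A of S phase and early mitosis, was at 2.10, 1.81, 1.07 and 2.59 CPM in young KO hearts and at 4.82, 3.98, 2.36 and 3.88 CPM in aged ones. KO_Aged-122 lay below KO_Young-53, and Ccna2 rose by 0.99 ± 0.26 (adjusted p = 0.0233). Top2a was at 3.36, 1.81, 1.90 and 2.25 CPM in young and at 7.57, 5.71, 3.66 and 3.15 CPM in aged hearts. KO_Aged-125 was within the young range, and Top2a rose by 1.11 ± 0.30 (adjusted p = 0.0279). Bub1b, a kinase-like protein of the spindle checkpoint, was at 1.51, 1.48, 1.73 and 0.667 CPM in young and at 2.91, 2.98, 1.83 and 2.18 CPM in aged hearts. It rose by 0.87 ± 0.26 without overlap, at the edge of the threshold (adjusted p = 0.0465).

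Among the aged KO hearts, 21 of the 35 genes were highest in KO_Aged-114 and 10 in KO_Aged-115, and 18 were lowest in KO_Aged-122 and 12 in KO_Aged-125. The 23 mitotic genes other than Cenpf summed to 69.0, 57.7, 34.3 and 38.2 CPM in the aged KO hearts, against 34.6, 42.2, 37.7 and 37.4 CPM in the aged WT hearts and 23.4 to 30.7 CPM in the young hearts of both genotypes. In this sum KO_Aged-122 and KO_Aged-125 were near the aged WT mean of 38.01 ± 3.15 CPM and above all young hearts. Cenpf was left out after its values were seen. With it, the 24 genes summed to 96.4, 108.4, 90.2 and 85.2 CPM in aged KO hearts, 51.2, 97.4, 70.7 and 81.3 CPM in aged WT hearts and 50.7 to 71.3 CPM in young hearts. The gap between the aged KO hearts was narrower in that sum, with KO_Aged-114 and KO_Aged-115 still the highest, and all 4 were above the young hearts. The count of genes that rose was 2 without KO_Aged-114 and 2 without KO_Aged-115, and 1, Mki67, without both. The call of Nusap1 held in 16 of 17 alternatives, all but the fit without both hearts. Those of Ccna2, Top2a and Tpx2 each held in 11 and that of Bub1b in 7. The count was 3 without KO_Young-31, KO_Young-38 or KO_Young-53 and 10 with limma on the FPKM table. Mki67 and Nusap1 passed in each of those fits. Markers of atrial muscle summed to 684.5, 344.1, 251.9 and 188.4 CPM in the aged KO hearts, highest in KO_Aged-114 as well, while macrophage markers were at 469.9 and 464.8 CPM in KO_Aged-114 and KO_Aged-115, no higher than in the other two. Their part in the difference between hearts was not tested.

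**Figure D3:**
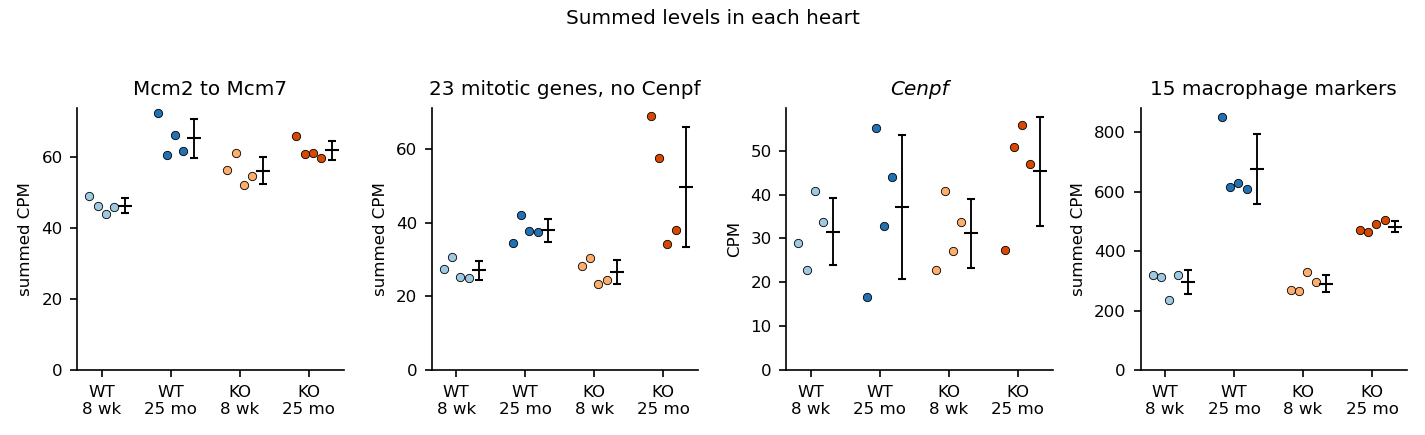
Summed CPM in each heart (points) with the group mean ± SD (bars, n = 4) for Mcm2 to Mcm7, the 23 mitotic genes other than Cenpf, Cenpf alone and 15 macrophage markers. The mitotic sum, without Cenpf, is split among aged KO hearts, at 69.0 and 57.7 CPM in 2 hearts and at 34.3 and 38.2 CPM in the other two, while the Mcm sum is between 59.6 and 65.8 CPM in all 4.

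None of the helicase genes passed the test of ageing in KO hearts. Mcm4 was at 11.3, 12.1, 10.4 and 10.5 CPM in young and at 11.9, 11.1, 10.8 and 11.1 CPM in aged KO hearts, which overlapped (0.02 ± 0.10, adjusted p = 0.933). Mcm2 was at 8.99, 9.47, 8.17 and 9.67 CPM in young and at 10.8, 8.45, 6.93 and 8.25 CPM in aged hearts (-0.08 ± 0.14, adjusted p = 0.809). Neither differed beyond its spread. Mcm3 was at 8.99, 7.99, 7.43 and 8.01 CPM in young and at 8.64, 10.2, 8.38 and 7.68 CPM in aged hearts (0.11 ± 0.13, adjusted p = 0.704), and Mcm6 was at 11.8, 15, 11.6 and 12.4 CPM and at 17.1, 12.4, 14.5 and 12.3 CPM (0.15 ± 0.13, adjusted p = 0.546). Mcm7 stood apart from these, with 11.2, 12.1, 11.5 and 10.6 CPM in young and 12.5, 13.3, 14.7 and 15.6 CPM in aged hearts. Its groups did not overlap, and its change was 0.31 ± 0.10 (adjusted p = 0.0779). Mcm5 did not overlap either, at 4.04, 4.45, 3.05 and 3.42 CPM against 4.82, 5.22, 5.63 and 4.69 CPM (0.44 ± 0.21, adjusted p = 0.233). Over all genes 8.71% were without overlap and higher in aged KO hearts.

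Pcna was at 42.8 ± 1.82 CPM in young and 43.6 ± 1.52 CPM in aged KO hearts (0.03 ± 0.09, adjusted p = 0.89). Ccne1 was at 1.43, 1.65, 1.07 and 1.75 CPM in young and at 2.52, 1.57, 2.51 and 2.35 CPM in aged KO hearts. KO_Aged-115 lay in the young range, and Ccne1 did not pass (0.60 ± 0.23, adjusted p = 0.118), though it did with limma on the FPKM table (adjusted p = 0.0317). Tyms was at 3.87, 3.46, 3.80 and 3.59 CPM in young and at 4.51, 4.89, 3.88 and 4.04 CPM in aged KO hearts (0.23 ± 0.23, adjusted p = 0.598). Its groups did not overlap, with KO_Aged-122 just above the young hearts. Ccne2 and Rrm2 had changes of 0.15 ± 0.24 and 0.49 ± 0.20 (adjusted p = 0.78 and 0.161). The APC/C genes Ube2c, a ubiquitin-conjugating enzyme, and Cdc20 had changes of 0.83 ± 0.29 and 0.68 ± 0.25 (adjusted p = 0.0843 and 0.119). Both were without overlap and higher in aged KO hearts, as were 8.71% of all genes. The remaining tested mitotic genes had positive changes too, from 0.21 for Birc5 (survivin, adjusted p = 0.751) to 1.02 for Cdk1 (adjusted p = 0.13), and did not pass.

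**Figure D4:**
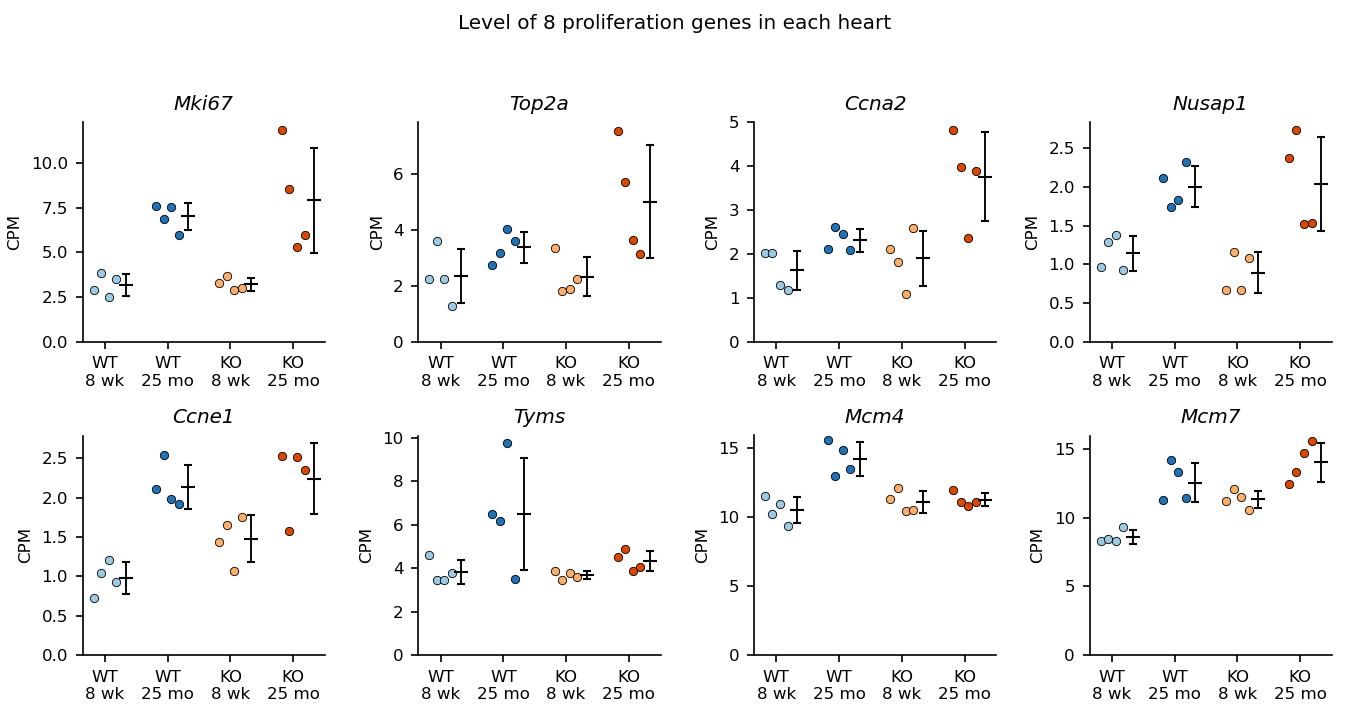
CPM in each heart (points) with the group mean ± SD (bars, n = 4) for 8 of the genes, by genotype and age. Mki67 and Nusap1 were higher in every aged heart than in every young heart of the same genotype, Mcm4 was higher in the aged WT hearts than in the aged KO hearts, and Top2a and Ccna2 had their widest spread among aged KO hearts.

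Between KO and WT hearts of the same age 0 of the 30 genes changed by edgeR, DESeq2 or limma. At 8 weeks 0.322% of all genes changed, and 3 of the 30 had an unadjusted p under 0.05, beside 11.2% of all genes. At 25 months 1.11% of all genes changed, and 7 of the 30 had an unadjusted p under 0.05, beside 11% of all genes. These comparisons use the same hearts as the ageing comparisons and are not independent of them.

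At 8 weeks the 7 helicase and clamp genes all had a positive KO minus WT difference, with none called. Their median was 0.27, against 0.005 over all genes, and the 11 replication and G1/S genes had 8 positive differences and a median of 0.10. The 19 mitotic genes had a median of -0.02. Mcm7 was at 10.6 to 12.1 CPM in young KO hearts and at 8.27 to 9.31 CPM in young WT hearts, without overlap (0.40 ± 0.11, adjusted p = 0.14). Mcm2 was at 8.17 to 9.67 against 5.07 to 7.49 CPM (0.47 ± 0.15, adjusted p = 0.217), and Mcm3 at 7.43 to 8.99 against 5.77 to 7.30 CPM (0.27 ± 0.14, adjusted p = 0.476). Birc5 of the chromosomal passenger complex did not overlap either, at 0.906 to 0.990 against 0.252 to 0.885 CPM (0.54 ± 0.34, adjusted p = 0.571). Such a lack of overlap, with KO higher, was seen in 4.06% of all genes. Ccne1 had the largest difference of the 30 genes, 0.60 ± 0.25 (adjusted p = 0.39), and its groups overlapped. It was at 1.07 to 1.75 CPM in young KO and 0.724 to 1.21 CPM in young WT hearts. Mcm7, Mcm2 and Ccne1 were the 3 genes with an unadjusted p under 0.05. The Mcm ring summed to 56 ± 3.80 CPM in young KO hearts, between young WT (46.3 ± 2.06) and aged WT (65.1 ± 5.37), and to 61.7 ± 2.74 CPM in aged KO hearts. In the same comparison all 6 tested atrial markers (median 1.48) and all 6 erythroid markers (median 0.51) had positive differences, and the 8 smooth muscle and pericyte markers had a median of -0.47. Of each of these lists 3 had an unadjusted p under 0.05 and 0 passed edgeR's test. The summed levels overlapped. Atrial markers were at 286.7 to 748.3 CPM in young KO and 279.4 to 496.1 CPM in young WT hearts. Erythroid markers were at 616.4 to 1079 and 527.8 to 715.5 CPM, and smooth muscle and pericyte markers at 1117 to 1241 and 1128 to 1694 CPM. Tfrc, of 3 tested erythroid precursor markers, fell. The part of these cells was not tested.

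At 25 months none of the mitotic or replication genes passed. Cdc20 was at 2.83, 1.91, 1.75 and 1.62 CPM in aged KO hearts and at 0.811, 1.51, 0.840 and 1.12 CPM in aged WT hearts. The KO hearts were all higher, with a difference of 0.92 ± 0.26 that did not pass (adjusted p = 0.102). Mcm4 was at 10.8 to 11.9 CPM in aged KO and at 12.9 to 15.6 CPM in aged WT hearts, all KO hearts being lower (-0.34 ± 0.10, adjusted p = 0.109). Over all genes 2.1% were without overlap and higher in KO and 2.94% without overlap and lower. Of the 19 mitotic genes 17 had a positive difference (median 0.32), and of the 11 replication and G1/S genes 5 did (median -0.10). Without KO_Aged-114 and KO_Aged-115 together, an alternative chosen after the data were seen, 8 of the 19 mitotic differences were positive and their median was -0.02. Plk1, the polo kinase, and Prc1, which bundles midzone microtubules, had differences of 0.99 ± 0.38 (adjusted p = 0.292) and 0.73 ± 0.26 (adjusted p = 0.241). Plk1 reached the floor of the low-count filter in 3 aged KO hearts and in 1 heart of each other group. It was thus tested only through the group in which it was highest, and its difference is to be read with that limit. The Tyms difference was -0.59 ± 0.21 (adjusted p = 0.265), and of the alternatives run it passed only in that without WT_Aged-12 (-0.79, adjusted p = 0.0193). In the same comparison all 15 macrophage markers had negative differences (median -0.52, 11 at an unadjusted p under 0.05), of which Mrc1 passed and fell. Their sum was 464.8 to 504.7 CPM in aged KO and 609.3 to 852.5 CPM in aged WT hearts, without overlap. Cd8a, of 3 tested T and NK cell markers, fell, and 3 of 4 tested neutrophil markers fell, the summed neutrophil level being 4.97 to 16.2 CPM in KO and 22.8 to 37.6 CPM in WT hearts. The 6 tested atrial markers had a median difference of 2.46 with 0 called by edgeR (5 at an unadjusted p under 0.05), and the 6 erythroid markers one of -0.61 with 0 called (4 at an unadjusted p under 0.05). Their sums overlapped between the genotypes. Atrial markers summed to 188.4 to 684.5 CPM in aged KO and 166.8 to 521.1 CPM in aged WT hearts, and erythroid markers to 898.5 to 1838 and 1021 to 2211 CPM. The part of these cells was not tested.

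**Figure D5:**
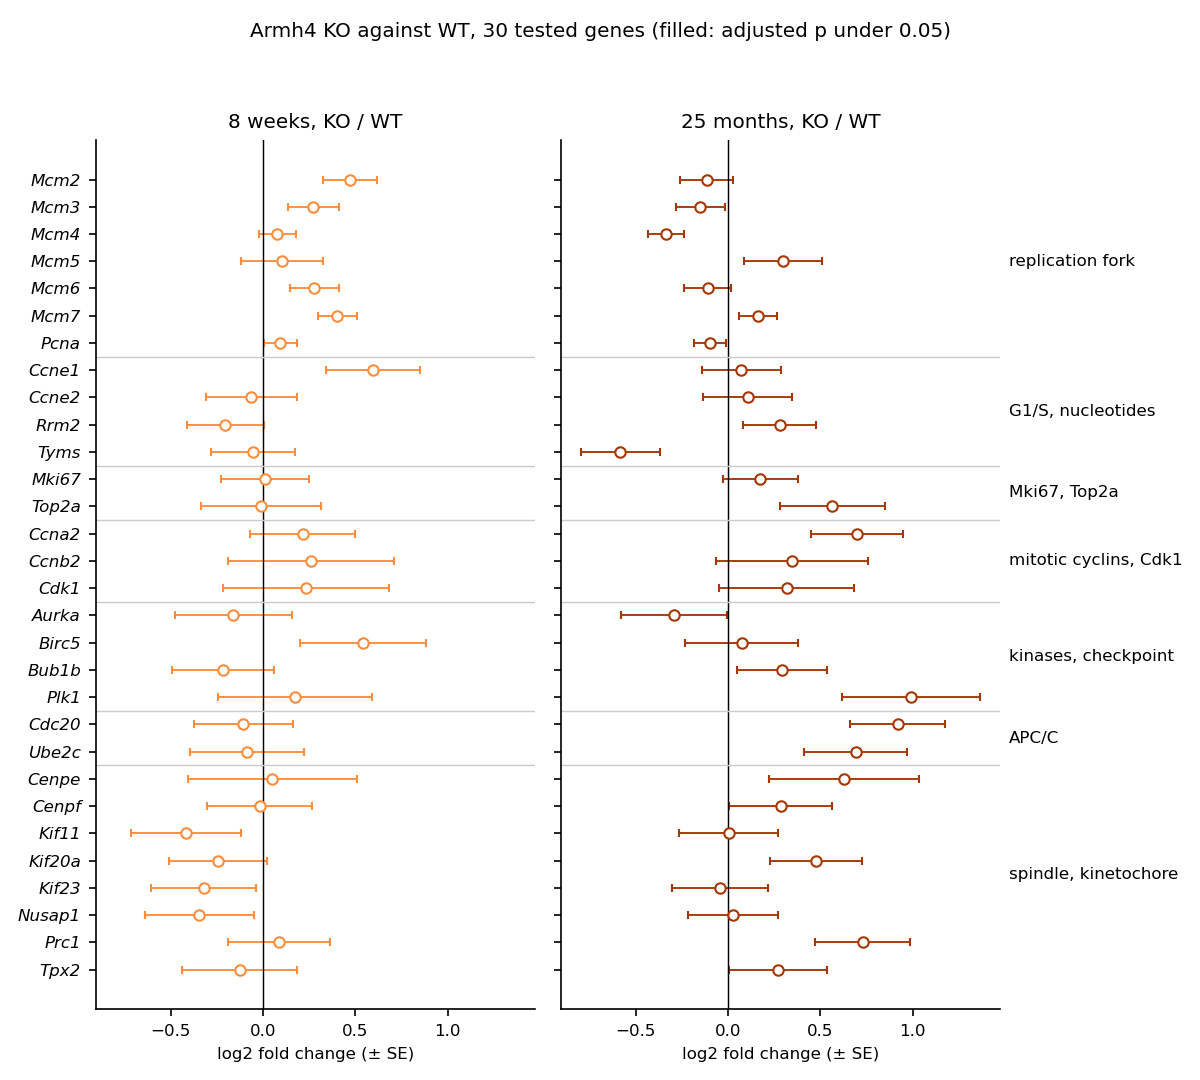
Log2 difference ± SE between KO and WT hearts at 8 weeks (left) and at 25 months (right) for the 30 tested genes, by role, with 4 hearts a group. No point is filled, since no gene had an adjusted p under 0.05; Mcm2 and Mcm7 have the largest helicase values at 8 weeks and Mcm4 the lowest helicase value at 25 months.

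Whether the ageing change itself differed between genotypes was tested as an interaction (KO change minus WT change). It was called for 0 of the 30 genes by edgeR, DESeq2 or limma, where 0.576% of all genes were called. At an unadjusted p under 0.05 there were 5 of the 30, beside 12.4% of all genes. Of these, 4 were among the 7 helicase and clamp genes (Mcm2, Mcm3, Mcm4 and Mcm6) and 1, Cdc20, among the 19 mitotic genes. Of the 7 helicase and clamp genes 1, Mcm5, was positive and the median was -0.39, with Mcm2 at -0.59 ± 0.20 (adjusted p = 0.23) and Mcm4 at -0.41 ± 0.14 (adjusted p = 0.208). Of the 19 mitotic genes 17 were positive with a median of 0.42, led by Cdc20 at 1.03 ± 0.37 (adjusted p = 0.26). Without KO_Aged-114 and KO_Aged-115 together 11 of the 19 were positive, with a median of 0.04. The median over all genes was 0.005. The different lists of genes that passed in WT and in KO hearts are thus not shown to differ gene by gene.

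Cenpf, a kinetochore protein, did not follow the other spindle genes in every group of hearts. It was at 28.9, 22.8, 40.9 and 33.7 CPM in the young WT hearts and 16.6, 55.2, 32.9 and 43.9 CPM in the aged ones. In KO hearts it was at 22.7, 40.8, 27.2 and 33.9 CPM when young and at 27.4, 50.8, 55.9 and 47.1 CPM when aged. The groups overlapped throughout, and it passed no test (ageing 0.24 ± 0.28 in WT and 0.54 ± 0.28 in KO, adjusted p = 0.589 and 0.278). Its counts made up 54.2% to 82.3% of the CPM of the 9 spindle and kinetochore genes. In aged WT hearts the other spindle genes summed to 11.8, 16.2, 13.4 and 13.7 CPM, the same order as Cenpf, both lowest in WT_Aged-1. In aged KO hearts they summed to 23.2, 21.6, 12 and 12.5 CPM. There Cenpf was lowest in KO_Aged-114, the heart in which most other mitotic genes were highest. Among young WT hearts the other spindle genes summed to 10.8, 12.3, 10.5 and 9.82 CPM. They were highest in WT_Young-34, where Cenpf was lowest. Among young KO hearts they summed to 9.67, 11.9, 8.67 and 8.26 CPM, highest in KO_Young-31 as Cenpf was. The mitotic sum is therefore given above both without and with Cenpf.

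The 5 untested genes, Aurkb, Bub1, Ccnb1, Cdca8 and Hmmr, had at most 10 to 27 counts in any library. Fitted without the low-count filter, none passed in any comparison. The largest value was that of Hmmr, a spindle-associated hyaluronan receptor, which changed by 1.88 ± 0.56 with age in KO hearts (adjusted p = 0.0507). Ccnb1, a cyclin B, was at 0.609 to 1.38 CPM in aged KO hearts and at 0.153 to 0.713 CPM in aged WT hearts (1.40 ± 0.54, adjusted p = 0.349), and Aurkb was at 0.172 to 0.587 CPM in young and 0.649 to 0.8 CPM in aged WT hearts (0.95 ± 0.39, adjusted p = 0.0964). Of the tested genes, Plk1, Cenpe and Ccnb2 came nearest to the filter and reached its floor in 6, 7 and 8 of 16 libraries. Each did so in 3 aged KO hearts and in 1 or 2 hearts of each other group.

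The other genes of these processes were counted as well, and their calls are to be read beside the 11.9% of all genes that rose and the 10% that fell in WT hearts, and the 5.03% and 2.64% in KO hearts. Of 41 tested replication and licensing genes outside the 35, with age 3 rose in WT hearts (Fen1, Cdc6 and Rfc5) and 3 in KO hearts (Uhrf1, Fen1 and Cdc6), and 0 fell. Cdc6, which loads the Mcm ring, rose by 1.41 ± 0.37 (adjusted p = 0.0102) in WT and 1.30 ± 0.35 (adjusted p = 0.0278) in KO hearts, and Fen1, the flap nuclease of lagging-strand synthesis, by 0.52 ± 0.13 (adjusted p = 0.00643) and 0.53 ± 0.13 (adjusted p = 0.0148). Their medians were 0.16 in WT and 0.08 in KO hearts. Of 32 tested mitosis genes outside the 35, 4 rose and 1 fell in WT hearts and 3 rose and 0 fell in KO hearts, with medians of 0.32 and 0.53. Tacc3, a spindle protein that acts with Aurora A, rose in both, by 0.66 ± 0.16 (adjusted p = 0.00571) and 0.79 ± 0.15 (adjusted p = 0.0028), and the centromeric histone Cenpa was the gene that fell in WT hearts (-0.31 ± 0.10, adjusted p = 0.0419). Of 26 tested regulators of G1, E2f2, E2f1 and Myc rose in WT and Myc in KO hearts, with medians of 0.05 and 0.13. E2f1 and E2f2, transcription factors that switch on replication genes, rose by 1.21 ± 0.38 (adjusted p = 0.0302) and 1.72 ± 0.42 (adjusted p = 0.00635) in WT hearts, and had changes of 0.75 ± 0.36 (adjusted p = 0.233) and 0.92 ± 0.38 (adjusted p = 0.163) in KO hearts. In these 3 lists 0 genes changed between KO and WT at either age or in the interaction by edgeR. At an unadjusted p under 0.05 there were 0 to 4 genes per list at 25 months, 2 or 3 at 8 weeks and 2 to 5 in the interaction, out of 26 to 41 genes, where all genes gave 11%, 11.2% and 12.4%.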

How the data were processed

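Bulk RNA-seq of 16 hearts was analysed from a table of expected counts and a table of FPKM, both deposited by the authors, the FPKM being scaled for library size and gene length. The submitters' processing notes list HISAT, Bowtie2 and GRCm39. Versions and the counting program are not given in the sources used here. In each library 9.57% to 10.5% of the deposited counts were fractional (tolerance 1e-09), and all were rounded. The genes and role lists were chosen with earlier results of these data known.

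The main test was edgeR 4.0.16 under R 4.3.3 (filterByExpr with a minimum count of 10, TMM, glmQLFit and glmQLFTest, all 16 libraries in 1 fit of 4 groups with 12 residual degrees of freedom), with Benjamini-Hochberg adjustment over 13373 genes at a threshold of 0.05. The contrasts were aged minus young in each genotype, KO minus WT at each age and their interaction. Alternatives were DESeq2 1.42.0, limma 3.58.1 on log2(FPKM + 1) and log2(FPKM + 0.1), other filters and size factors, fewer groups in the fit and each heart left out. The robust form of glmQLFit and leaving out KO_Aged-114 and KO_Aged-115 together were added after seeing the data. The fits were tested on simulated data. Values are given heart by heart for genes that passed in any comparison, for Mki67, Top2a and Mcm2 to Mcm7, and for a few singled out after their values were seen: Pcna, Cdc20 and Cenpf. Promoter motifs were counted on both strands of the RefSeq windows.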

Additional observations from a re-analysis of the deposited data

Results flagged for a closer look

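In each of the 4 groups, each of the 35 genes was checked for a heart far from the other 3, by the gap to the nearest heart over the whole range (above Dixon's 95% critical value for 4 samples). Of 140 such sets 6 held one, where chance alone gives about 1 in 20. KO_Young-27 stood apart for Cdk1 at 1.34 CPM (others 0.659 to 0.751) and for Hmmr at 0.504 CPM (others 0.247 to 0.25). KO_Young-31 stood apart for Plk1 at 1.32 CPM (others 0.504 to 0.584). WT_Aged-4 stood apart for Cenpe at 1.35 CPM (others 0.64 to 0.73), and WT_Aged-1 for Mcm6 at 18 CPM (others 14.1 to 14.6). KO_Aged-114 stood apart for Ube2c at 2.37 CPM (others 1.29 to 1.46). All 6 were high values.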

How the results depend on the processing

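The count of genes that rose with age in WT hearts was 8 to 10 under all 16 alternatives (main value 9), and Ccne1, Mki67, Mcm2, Mcm3, Mcm4, Mcm6 and Mcm7 passed in each. In KO hearts the count (main value 6) was 10 with limma on log2(FPKM + 1), ran from 2 to 8 on leaving out single hearts and was 1 without KO_Aged-114 and KO_Aged-115 together; Mki67 passed in all 17 alternatives and Nusap1 in 16. In aged KO against aged WT hearts 1 gene was lower without WT_Aged-12 (range on leaving out single hearts 0 to 1). The other counts were 0 under every alternative run. Of 2683 values of single genes under the alternatives, 37 lost and 13 gained a call and 0 of the called values reversed. No paired analysis was possible because the groups share no replicate numbers. Several genes were read from fewer than 30 counts per library, which limits their precision.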
